A study of Mus musculus with 24 samples.

Results

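The comparison covered hippocampi of Tob-KO and WT mice taken 1 h after contextual fear conditioning, which made up 6 of the 24 libraries of the series (3 mice per genotype). The 6 libraries were chosen by their labels alone, and the remaining 18 came from naive mice and from mice culled 15 min or 3 h after conditioning. All mice were males of the C57BL/6J strain aged 8 to 12 weeks, and both genotypes at 1 h had gone through the same conditioning session, in which shocks are paired with a context. The Tob-KO mice carry a deletion in every cell of the body, so no cell type is singled out by the genotype. The labels give the tissue as brain and the study's design names the hippocampus. Poly(A) RNA was sequenced as paired reads with a directional kit, and each library was deposited as a read count per gene.

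Tob, encoded by Tob1, belongs to the Tob/Btg family of antiproliferative proteins. It binds target messengers through partner proteins and brings them to the CCR4-NOT complex, which shortens their poly(A) tails. In the hippocampus, a fear conditioning session switches on immediate early genes in neurons within minutes. Much of the fibrillar collagen of the brain, in contrast, is made outside the neuropil by fibroblasts of the meninges, vessels and choroid plexus, where border macrophages also live. Border macrophages are distinct from microglia, the macrophages inside the tissue.

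The 6 libraries held 28847989 to 39829648 counts each. Markers of choroid plexus, a secretory epithelium next to the hippocampus, differed widely between mice. The summed level of 20 such markers was 4032, 299 and 1696 TMM-normalized CPM (counts relative to the library total) in WT mice 1, 2 and 3, and 3503, 3743 and 5272 CPM in Tob-KO mice 1, 2 and 3. WT mouse 1 was thus in the range of the Tob-KO mice while WT mice 2 and 3 were below it. Markers of hippocampal subfields were present in all 6, with 13 of them summing to 1080 to 1201 CPM.

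Between genotypes at 1 h, 22 of 18169 genes tested were called at a false discovery rate (FDR) of at most 0.05 by edgeR's exact test, which is 0.121% of them. Of these, 15 were higher in Tob-KO (0.0826% of genes tested) and 7 lower (0.0385%). With the study's additional limit of a 2-fold change, 6 were left (0.033%). Most of the called differences were small, since 16 of the 22 were under 2-fold and 9 under 1.5-fold. The 16 had a median level of 30.3 CPM, against 0.772 CPM for the 6 past 2-fold. A limit of 2-fold at this point therefore kept scarce transcripts and left out the better measured matrix and myeloid genes. In each of the 22 genes the 3 Tob-KO values lay all above or all below the 3 WT values. That was also so for 11.6% of all genes tested (5.71% above and 5.84% below). At an unadjusted p of at most 0.05 were 970 genes (5.34%).

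**Figure D1:**
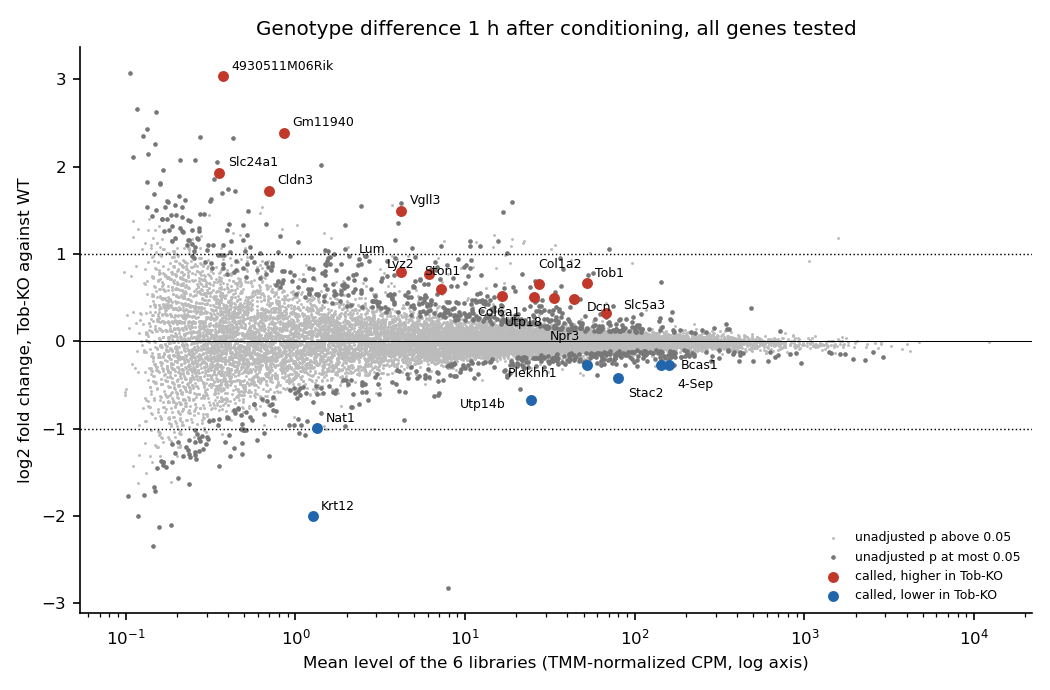
Log2 fold change of Tob-KO against WT at 1 h (vertical) against the mean level of the 6 libraries in CPM (horizontal, log axis), with 1 point per gene tested and dotted lines at a 2-fold change. The 15 genes called higher are red and the 7 called lower are blue, and 16 of the 22 lie between the dotted lines.

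The count depended on the test and on the libraries. The quasi-likelihood test of edgeR called 0 genes (smallest adjusted p = 0.0687) with 1136 (6.25%) at an unadjusted p of at most 0.05, and DESeq2 called 28, of which 15 were higher and 13 lower and 17 were among the 22. Cldn3, Nat1, Vgll3, Plekhh1 and Slc24a1 were called by the exact test but not by DESeq2. Without WT mouse 1, the WT mouse rich in choroid plexus markers, the exact test called 400 genes, 365 of them higher (2.03% of genes tested), and all 22 were among them. Without Tob-KO mouse 1 it called 46, of which 11 were among the 22. The count was 12 without WT mouse 2, 26 without WT mouse 3, 12 without Tob-KO mouse 2 and 13 without Tob-KO mouse 3.

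Tob1 itself was the gene with the smallest p. Its level was 44.4, 40.0 and 36.9 CPM in WT mice against 67.6, 66.2 and 59.3 CPM in libraries with the Tob-KO label. All 3 of those libraries were thus above every WT library, by a log2 fold change of 0.67 (standard error, SE, 0.07; adjusted p = 6.45e-11 in edgeR's exact test). The transcript of the targeted gene was higher, not lower, in these libraries, so it does not check the genotype labels. Counts were per gene, so reads from the deleted stretch cannot be told apart from reads elsewhere in Tob1. Throughout, Tob-KO names the libraries so labelled, and every direction given rests on those labels.

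Tob2, the paralog of Tob1, was at 41.5, 37.7 and 35.6 CPM in WT mice against 40.1, 43.3 and 43.1 CPM in Tob-KO, and the ranges overlapped (log2 fold change 0.14, 95% interval -0.01 to 0.28, adjusted p = 1.00 in the same edgeR exact test). Of 41 genes tested of the Tob/Btg family and the deadenylation machinery, Tob1 was the only one called. Btg1, a further family member, had a log2 fold change of 0.19 at an unadjusted p = 0.0116 in the exact test, and Patl1, which joins deadenylation to decapping, one of 0.18 at an unadjusted p = 0.0312.

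Collagen and matrix genes held 4 of the 22 calls, all higher in Tob-KO. Col1a2, which encodes a chain of type I collagen (chromosome 6, 4504814 to 4541544, plus strand, GRCm38), was at 24.6, 20.5 and 18.1 CPM in WT mice against 29.6, 33.9 and 35.8 CPM in Tob-KO. The lowest Tob-KO mouse was above the highest WT mouse. Its level was 1.57-fold higher in Tob-KO (log2 fold change 0.65, SE 0.11, 95% interval 0.41 to 0.90, adjusted p = 0.000289 in edgeR's exact test).

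Col6a1, which encodes a chain of the beaded-filament type VI collagen (chromosome 10, 76708792 to 76726168, minus strand), showed the same order with less scatter. It was at 14.4, 13.4 and 12.99 CPM in WT mice against 20.5, 19.7 and 18.5 CPM in Tob-KO. The log2 fold change was 0.52 (SE 0.08, 95% interval 0.35 to 0.70, adjusted p = 0.000289 in the same edgeR exact test). Both Col1a2 and Col6a1 stayed called whichever single library was left out, with an adjusted p of at most 0.0433 in the exact test. Neither was called by the quasi-likelihood test or with dispersion estimated from the 24 libraries.

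The other 2 matrix genes called were small leucine-rich proteoglycans, which bind collagen fibrils and govern their spacing. They are neighbours on chromosome 10, with Dcn (decorin) at 97479609 to 97518143 and Lum (lumican) at 97565128 to 97572703, both on the plus strand. Lum was at 3.79, 2.48 and 2.86 CPM in WT mice against 5.30, 5.17 and 5.37 CPM in Tob-KO (log2 fold change 0.80, SE 0.16, adjusted p = 0.0252 in edgeR's exact test). Dcn was at 38.4, 33.5 and 38.0 CPM in WT mice against 60.7, 49.2 and 44.0 CPM in Tob-KO (log2 fold change 0.49, SE 0.11, adjusted p = 0.0348 in the same edgeR exact test). Neither pair of ranges overlapped, although the 3 Tob-KO values of Dcn were spread more widely than those of Lum. Lum was called in 1 of the 6 fits that leave out a library and Dcn in 2, with adjusted p-values of up to 0.337 in both.

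**Figure D2:**
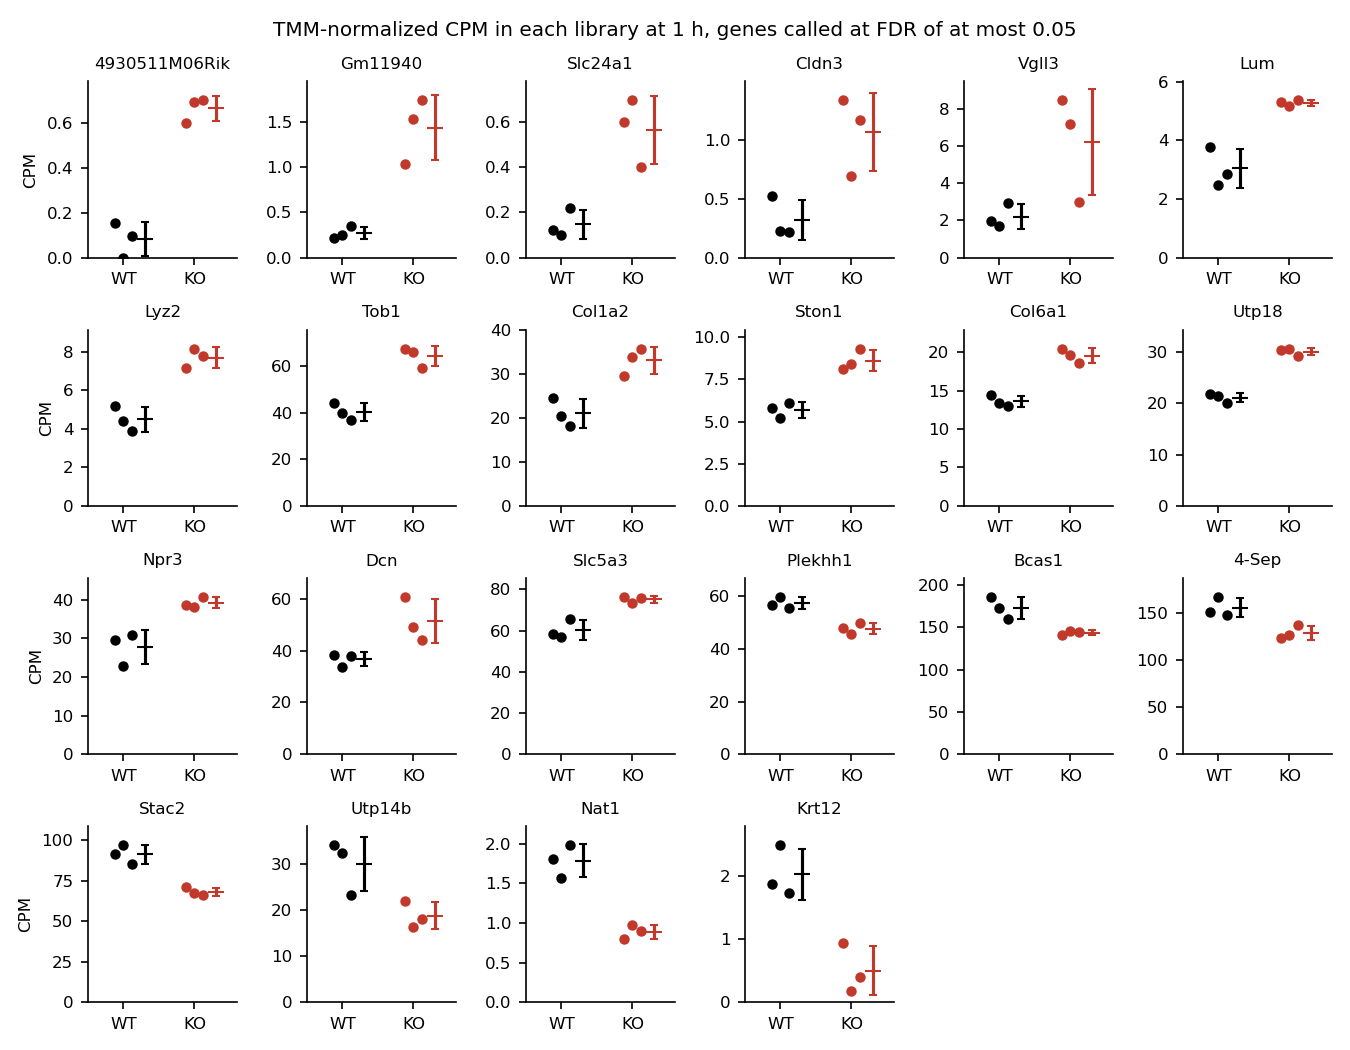
Level of each of the 22 called genes in CPM (vertical, each panel from 0) in the 3 WT (black) and 3 Tob-KO (red) libraries at 1 h, in the order of replicates 1 to 3, with mean and SD beside the points. In every panel the points of the genotypes are apart, from 4930511M06Rik with the highest log2 fold change to Krt12 with the lowest.

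Of 86 collagen and matrix genes tested, 4 were called higher and 0 lower, and 27 had an unadjusted p of at most 0.05 with a higher level against 4 with a lower one. Over all genes tested those shares were 3.15% and 2.19%. Their median log2 fold change was 0.19, with 66 of 86 above 0, while the median of all genes was 0.00 with 49.5% above 0. The kinds of matrix protein are described separately by their counts, with no test between them.

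The small leucine-rich proteoglycans were uniform in sign, since all 6 had a log2 fold change above 0 (0.40 to 0.88) and 5 an unadjusted p of at most 0.05. Fmod (fibromodulin) was among them, at 17.9, 14.8 and 12.6 CPM in WT mice against 16.9, 23.7 and 29.1 CPM in Tob-KO, where the lowest Tob-KO value lay inside the WT range (log2 fold change 0.62, exact test, adjusted p = 0.281). Of 8 fibrillar collagen genes, 7 were above 0 and 3 had an unadjusted p of at most 0.05. Col1a1, among these 3, lies within 1 Mb of Tob1 on chromosome 11, where 25.9% of genes tested reached that p. Of the 3 type VI collagen genes tested, Col6a1 and Col6a2 were above 0 and Col6a3 below (log2 fold change -0.21, unadjusted p = 0.327 in the exact test). Col6a2 was at 8.06, 8.29 and 6.76 CPM in WT mice against 9.40, 10.97 and 10.96 CPM in Tob-KO (log2 fold change 0.44, exact test, adjusted p = 0.272).

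Of 9 genes for collagen processing and cross-linking, 8 had a log2 fold change above 0 (median 0.20) and 2, Serpinh1 and Pcolce, an unadjusted p of at most 0.05. The lowest was Plod1, a lysyl hydroxylase, at -0.06. Serpinh1, the collagen chaperone of the endoplasmic reticulum, was at 25.1, 18.3 and 18.4 CPM in WT mice against 28.3, 27.5 and 26.4 CPM in Tob-KO, with no overlap (log2 fold change 0.41, adjusted p = 0.283 in edgeR's exact test). Pcolce, which enhances removal of the procollagen tail, had a log2 fold change of 0.93 with a SE of 0.30 (exact test, adjusted p = 0.436). Its WT values of 11.8, 4.21 and 6.48 CPM followed the order of the choroid plexus markers, with WT mouse 1 level with Tob-KO mouse 1 at 11.8 CPM. The elastic-fibre proteins Fbln1 and Efemp1 had log2 fold changes of 0.42 and 0.47 at unadjusted p-values of 0.00115 and 0.00165 in the exact test.

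Basement membrane genes had smaller values, with a median log2 fold change of 0.07 over 13 genes and 2 at an unadjusted p of at most 0.05. Most genes for the matrix of the neuropil had values below 0. Of 6 lecticans and link proteins, which build the hyaluronan lattice around neurons and nodes, 5 had a log2 fold change below 0 and 3 an unadjusted p of at most 0.05. Hapln2, a link protein of nodes of Ranvier, was at 20.3, 20.7 and 18.6 CPM in WT mice against 14.3, 15.2 and 16.1 CPM in Tob-KO (log2 fold change -0.38, SE 0.08, adjusted p = 0.0666 in edgeR's exact test). Bcan (brevican), made by astrocytes and oligodendrocyte lineage cells, had a log2 fold change of -0.17 (exact test, adjusted p = 0.228). The groups of both genes did not overlap, yet neither passed the threshold.

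The mice of the other groups allow the same genes to be compared in other animals. Col1a2 had log2 fold changes of -0.05 in naive mice, 0.01 at 15 min and 0.02 at 3 h, with SEs of 0.43, 0.12 and 0.25. Those of Col6a1 were -0.12, -0.41 and -0.07 and those of Dcn -0.14, -0.22 and -0.09, so neither gene was above 0 outside 1 h. Lum had 0.37, 0.69 and -0.35. None of the 4 was called at another time by the exact test. Over the 86 matrix genes the median was 0.10 in naive mice, -0.03 at 15 min and 0.02 at 3 h. At an unadjusted p of at most 0.05 in the exact test, 8 were higher and 1 lower in naive mice. The counts were 17 higher and 10 lower at 15 min, and 2 higher and 1 lower at 3 h. At 15 min, 2 matrix genes were called higher and 1 lower, where 0.746% of all genes tested were called in either direction. No matrix gene was called in naive mice or at 3 h.

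That the difference at 1 h departs from the difference in naive mice was not shown by the test of the interaction. It called 0 of 18882 genes by edgeR's quasi-likelihood test, with 694 genes (3.68%) at an unadjusted p of at most 0.05, and DESeq2 also called 0, with 530. For Col6a1 the log2 fold change at 1 h exceeded that in naive mice by 0.64 (unadjusted p = 0.0657 in the quasi-likelihood test of edgeR across all genes, adjusted p = 0.988). For Lyz2 it exceeded it by 0.87 (unadjusted p = 0.00207, adjusted p = 0.988 from the same edgeR test).

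**Figure D3:**
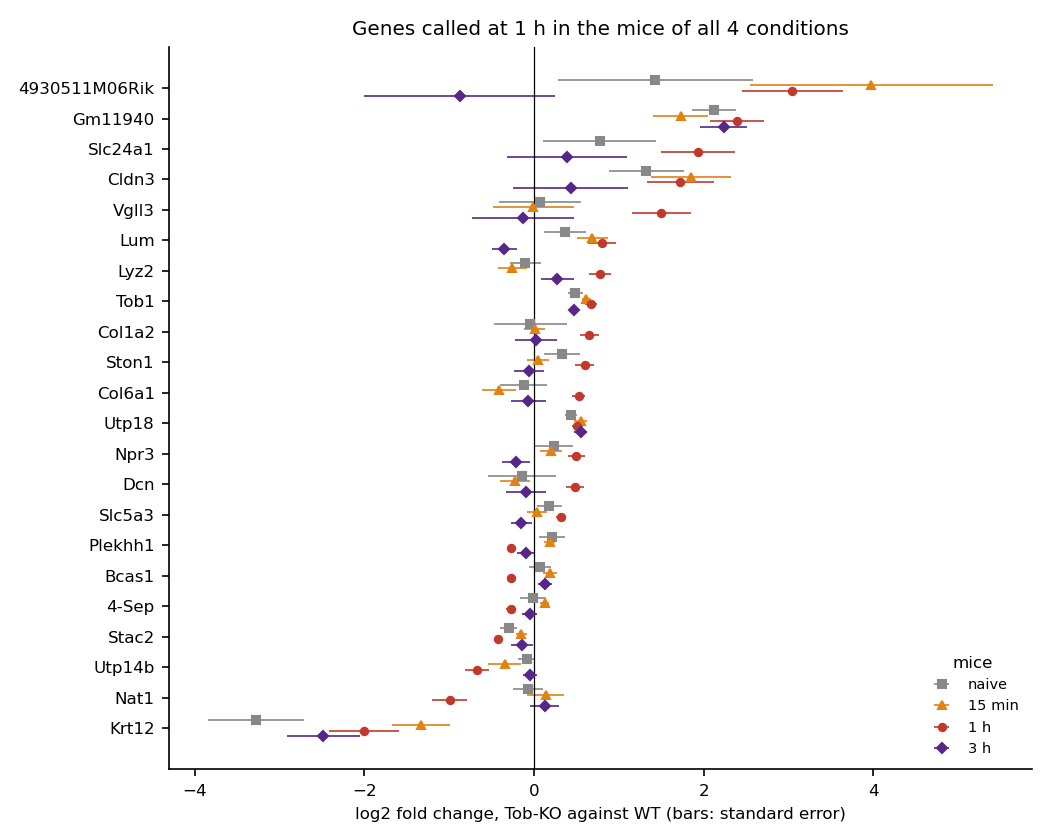
Log2 fold change of Tob-KO against WT with its SE (horizontal) for the 22 genes called at 1 h, in naive mice (grey), at 15 min (orange), 1 h (red) and 3 h (purple), each from 6 other mice; Slc24a1 was not tested at 15 min. Tob1, Gm11940, Utp18, Krt12, Stac2, Cldn3 and Utp14b lie on the same side of 0 in all 4. Col1a2, Dcn and Col6a1 are above 0 at 1 h and between -0.41 and 0.02 elsewhere.

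Markers of fibroblasts and of choroid plexus also had values above 0. The 12 fibroblast markers summed to 346, 192 and 221 CPM in WT mice 1, 2 and 3 and to 350, 375 and 386 CPM in Tob-KO, and 3 of the 12 (Col1a2, Lum and Dcn) were called. Of all genes tested, 0.0826% were called higher and 3.15% were higher at an unadjusted p of at most 0.05. Since 7 of the 12 also stand in the matrix list, the lists are not separate measurements. All 20 choroid plexus markers had a log2 fold change above 0 with a median of 1.00, but the spread between mice was so wide that 0 were called and 3 had an unadjusted p of at most 0.05. Ttr (transthyretin), the most abundant product of that epithelium, was at 2018, 23.5 and 832 CPM in WT mice against 1870, 1933 and 2721 CPM in Tob-KO, an overlap of ranges (log2 fold change 1.18, 95% interval -0.90 to 3.26, adjusted p = 1.00 in edgeR's exact test). Among the 27 matrix genes higher at an unadjusted p of at most 0.05, WT mouse 1 was the highest WT mouse in 23, as it was in 6858 of all 18169 genes. Without WT mouse 1, 30 of the 86 matrix genes, 10 of the 12 fibroblast markers and 11 of the 20 choroid plexus markers were called higher, in a fit that called 2.03% of all genes higher. Without WT mouse 2, 2 matrix genes, 1 fibroblast marker and 0 choroid plexus markers were called higher, against 0.0556% of all genes. The part of choroid plexus and fibroblast content in the matrix values was not tested. In bulk tissue, more cells of a type and more RNA per cell cannot be told apart.

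Lyz2, which encodes the lysozyme of macrophages and other myeloid cells (chromosome 10, 117277331 to 117282321, minus strand), was the 1 myeloid gene called. It was at 5.19, 4.41 and 3.90 CPM in WT mice against 7.13, 8.16 and 7.80 CPM in Tob-KO. Every Tob-KO mouse was above every WT mouse, 1.71-fold on average (log2 fold change 0.77, SE 0.13, 95% interval 0.49 to 1.06, adjusted p = 0.00105 in edgeR's exact test). The call was lost without Tob-KO mouse 2 or 3, with an adjusted p of up to 0.101 in the exact test. Lyz2 has a close paralog, Lyz1, with which reads can be shared. At the other times its log2 fold change was -0.10, -0.25 and 0.28, without a call.

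Other genes of border macrophages, the phagocytes of meninges, perivascular spaces and choroid plexus, mostly had values above 0 at 1 h without passing the threshold. Of 14 markers tested, 13 had a log2 fold change above 0 (median 0.54), 8 had an unadjusted p of at most 0.05 with a higher level, and 0 were called. Of all genes tested, 49.5% were above 0 and 3.15% were higher at that p. H2-Ab1, a chain of the class II antigen-presenting molecules, was at 1.404, 0.659 and 0.849 CPM in WT mice against 1.73, 2.12 and 2.13 CPM in Tob-KO (log2 fold change 1.05, exact test, adjusted p = 0.184). Cd74, the chaperone of class II molecules, was at 2.20, 1.24 and 1.73 CPM in WT mice against 2.70, 2.64 and 4.17 CPM in Tob-KO (log2 fold change 0.88, exact test, adjusted p = 0.310). Both showed no overlap between genotypes at levels of only a few CPM.

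The scavenger and mannose receptors of these cells were not called either. Stab1, a scavenger receptor, was at 20.1, 18.7 and 19.9 CPM in WT mice against 22.8, 23.5 and 23.9 CPM in Tob-KO, a tight separation of 1.20-fold (log2 fold change 0.26, SE 0.07, adjusted p = 0.375 in edgeR's exact test). Mrc1, the mannose receptor, had 4.24, 3.45 and 3.90 CPM in WT mice against 4.23, 6.56 and 7.17 CPM in Tob-KO, where Tob-KO mouse 1 was at the level of WT (log2 fold change 0.63, exact test, adjusted p = 0.427). F13a1 and Cd163 had log2 fold changes of 0.70 and 0.64 at unadjusted p-values of 0.00721 and 0.0135 in the exact test.

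The summed level of the 14 markers was 39.1, 31.5 and 35.4 CPM in WT mice against 42.5, 48.8 and 53.7 CPM in Tob-KO at 1 h. In the other mice the sums of the genotypes overlapped in naive mice (30.4 to 44.2 CPM in WT, 26.8 to 52.6 in Tob-KO) and at 3 h (34.2 to 41.4 and 34.7 to 50.9), and at 15 min the Tob-KO sums lay below those of WT (43.3 to 45.6 and 32.1 to 42.4). WT mouse 1 was the highest WT mouse for 7 of the 8 markers with an unadjusted p of at most 0.05, and without it 4 of the 14 were called higher, in the fit that called 2.03% of all genes higher. The part of choroid plexus content in these values was not tested.

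Microglia markers gave no calls. The 25 of them summed to 589 to 608 CPM in WT mice against 591 to 610 CPM in Tob-KO, with a median log2 fold change of 0.00 and 0 called. The smallest p-values among them belonged to Ly86 and Fcer1g, which macrophages share, with log2 fold changes of 0.34 in each and unadjusted p-values of 0.0326 and 0.0430 in the exact test. C1qb, a complement chain of microglia, had a log2 fold change of 0.09 with a 95% interval of -0.03 to 0.21.

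Several inflammatory cytokines were too scarce to test. Of 74 genes of myeloid signalling and inflammation, 62 were tested, with Lyz2 called and 6 at an unadjusted p of at most 0.05, all higher in Tob-KO. The shares of all genes tested were 0.0826% called higher and 3.15% higher at that p. Il1b, Il6, Tnf and Ccl2 did not pass the filter on low counts, with at most 13, 2, 1 and 4 reads in any of the 6 libraries. Lcn2, a neutrophil and astrocyte stress protein named by the study, had at most 5 reads and was not tested either. Gas6, a bridging ligand for phagocytic receptors, was at 112, 83.6 and 96.8 CPM in WT mice against 119, 119 and 124 CPM in Tob-KO (log2 fold change 0.31, adjusted p = 0.247 in edgeR's exact test). Vcam1, an adhesion receptor for leukocytes, had 39.4, 26.6 and 27.4 CPM in WT mice against 41.9, 38.5 and 40.7 CPM in Tob-KO, where the ranges overlapped since WT mouse 1 lay above Tob-KO mouse 2. Tlr4, the endotoxin receptor, and Cd44, a hyaluronan receptor, had log2 fold changes of 0.62 and 0.43 at unadjusted p-values of 0.0109 and 0.0340 in the exact test.

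Markers of blood cells gave no calls, and many were too scarce to test. Of 16 neutrophil and monocyte markers, 5 were tested, 0 were called and 0 had an unadjusted p of at most 0.05, and the sums were 6.92 to 7.65 CPM in WT mice against 6.53 to 7.67 CPM in Tob-KO. S100a8 and Ngp, abundant neutrophil transcripts, had at most 6 reads in a library, and Retnlg had 0, which allows up to 3 reads. The haemoglobin and other red cell markers summed to 109 to 133 CPM in WT mice against 101 to 119 CPM in Tob-KO. All 6 tested had a log2 fold change below 0, and 2, Hba-a2 and Fech, were without overlap. Over all genes tested, 5.84% lay below WT without overlap. Fech, a large part of each sum, had a mean of 58.1 CPM in WT mice against 55.55 CPM in Tob-KO (1.05-fold). Of 9 lymphocyte markers 2 were tested, Ptprc and Cd79a. The sums of all 9 did not overlap (3.19 to 3.74 CPM in WT mice, 4.40 to 5.398 in Tob-KO), and Ptprc made up most of each sum. Cd79a had a mean of 0.204 CPM in WT mice against 0.192 CPM in Tob-KO, with overlapping ranges (log2 fold change -0.08). Ptprc, the pan-leukocyte CD45, was at 3.08, 2.81 and 3.33 CPM in WT mice against 4.87, 4.06 and 3.93 CPM in Tob-KO (log2 fold change 0.48, exact test, adjusted p = 0.536), with every Tob-KO mouse above every WT mouse.

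**Figure D4:**
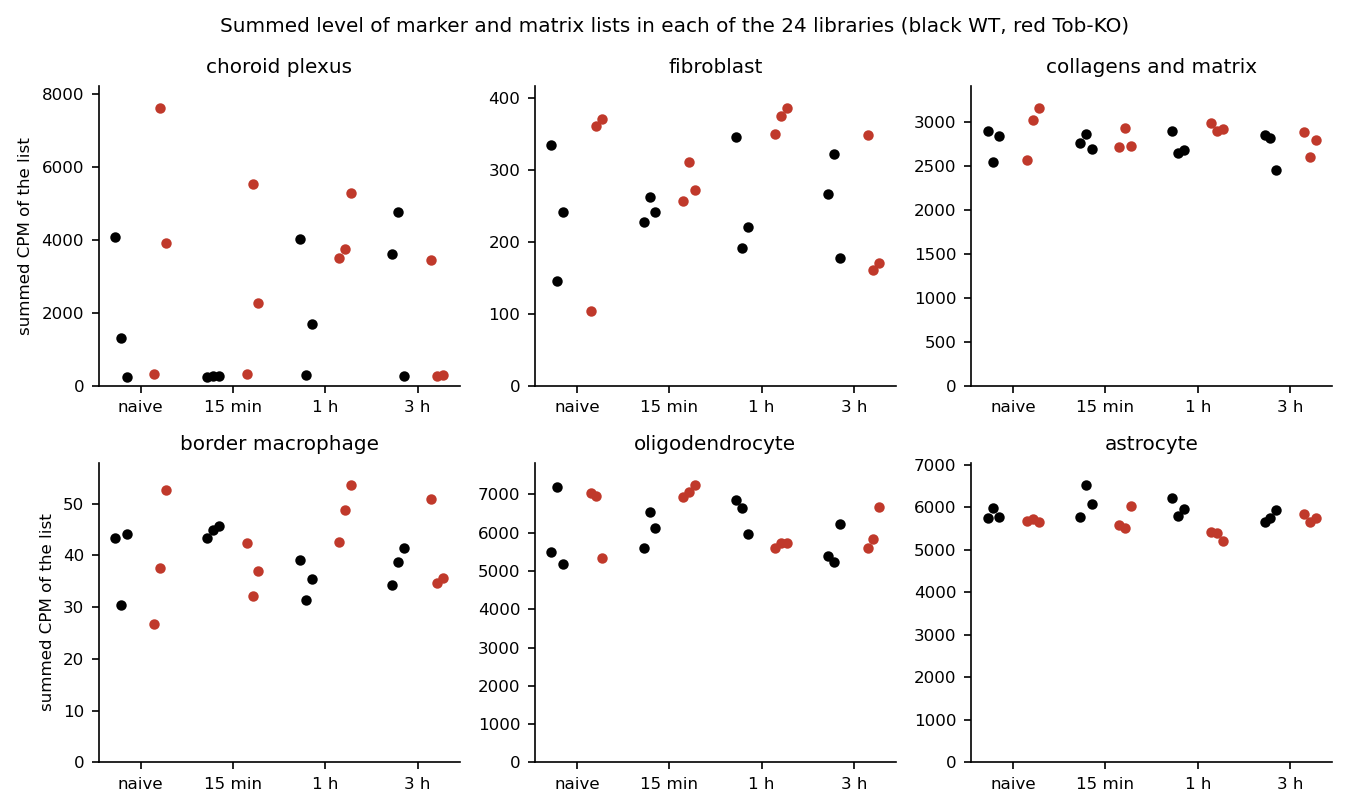
Summed level in CPM (vertical, from 0) of 6 gene lists in each of the 24 libraries, by time and genotype (black WT, red Tob-KO). At 1 h the border macrophage sums of Tob-KO (42.5 to 53.7) are above and the oligodendrocyte and astrocyte sums below those of WT, while the choroid plexus sums vary between mice in both genotypes.

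Of the genes called lower, Bcas1 and Plekhh1 are expressed in oligodendrocytes. Bcas1, a marker of newly myelinating oligodendrocytes, was at 186, 173 and 160 CPM in WT mice against 141, 146 and 144 CPM in Tob-KO. All Tob-KO values were below the lowest WT value (log2 fold change -0.27, SE 0.05, 95% interval -0.39 to -0.15, adjusted p = 0.0298 in edgeR's exact test). Plekhh1, which is also enriched in oligodendrocytes, was at 56.8, 59.8 and 55.5 CPM in WT mice against 47.9, 45.6 and 49.8 CPM in Tob-KO (log2 fold change -0.27, SE 0.05, adjusted p = 0.0350 in the same edgeR exact test). Both calls were lost when any of several single libraries was left out, Bcas1 in 4 of 6 fits and Plekhh1 in 5 of 6, and Plekhh1 was also lost with DESeq2 (adjusted p = 0.05015). Both were also lost when library size alone replaced TMM, and with dispersion estimated from the 24 libraries.

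Of 12 oligodendrocyte markers tested, all had a log2 fold change below 0 (median -0.19), 8 had an unadjusted p of at most 0.05 and 0 were called. Of all genes tested, 2.19% were lower at that p. Mag, an adhesion protein of the inner myelin wrap, was at 189, 188 and 164 CPM in WT mice against 140, 157 and 149 CPM in Tob-KO (log2 fold change -0.27, adjusted p = 0.0732 in edgeR's exact test). Mbp, the myelin basic protein, was at 2510, 2565 and 2259 CPM in WT mice against 2120, 2103 and 2100 CPM in Tob-KO (log2 fold change -0.21, 95% interval -0.33 to -0.09, adjusted p = 0.281 in the same exact test). The 3 Tob-KO values of Mbp lay closer together than the 3 WT values. DESeq2 called 2 of the 12 markers lower, Mag (adjusted p = 0.0203) and Mbp (adjusted p = 0.0172), while it called 0.154% of all genes in either direction.

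The 12 markers summed to 6855, 6646 and 5964 CPM in WT mice against 5601, 5734 and 5740 CPM in Tob-KO. In the other mice the sign was the reverse, with medians of 0.12 in naive mice, 0.24 at 15 min and 0.15 at 3 h. At 15 min, 3 of the 12 were called higher in Tob-KO, where 0.746% of all genes tested were called in either direction. Bcas1 likewise had log2 fold changes of 0.07, 0.19 and 0.12 at these times. Oligodendrocyte precursor markers had a median of -0.07 at 1 h over 7 genes. Endothelial markers (12 tested) and pericyte and smooth muscle markers (10 tested) had medians of -0.05 and -0.08, and ependymal markers (11 tested) one of 0.01, with 0 called in each.

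Astrocyte markers had a median log2 fold change of -0.14, 11 of 12 below 0, 6 with an unadjusted p of at most 0.05 and a lower level, and 0 called. The share of all genes tested that were lower at that p was 2.19%. S1pr1, a lipid receptor that is strongly expressed in astrocytes, was at 164, 151 and 146 CPM in WT mice against 134, 134 and 130 CPM in Tob-KO (log2 fold change -0.21, adjusted p = 0.134 in edgeR's exact test). Gfap, the intermediate filament of astrocytes, lies within 10 Mb of Tob1 on chromosome 11. It was at 440, 438 and 457 CPM in WT mice against 397, 393 and 353 CPM in Tob-KO (log2 fold change -0.22, SE 0.05, adjusted p = 0.151 in the same exact test). Both were without overlap. DESeq2 called 2 of the 12 lower, Gfap (adjusted p = 0.0305) and Slc1a2, a glutamate transporter of astrocytes (adjusted p = 0.0493), against 0.154% of all genes in either direction. The sums were 5802 to 6214 CPM in WT mice against 5208 to 5425 CPM in Tob-KO at 1 h, and they overlapped between genotypes at 15 min and 3 h, while in naive mice Tob-KO was also lower (5739 to 5977 CPM in WT, 5656 to 5714 in Tob-KO). CPM are shares of a library, and the part of the differing choroid plexus content in the glial values was not tested.

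**Figure D5:**
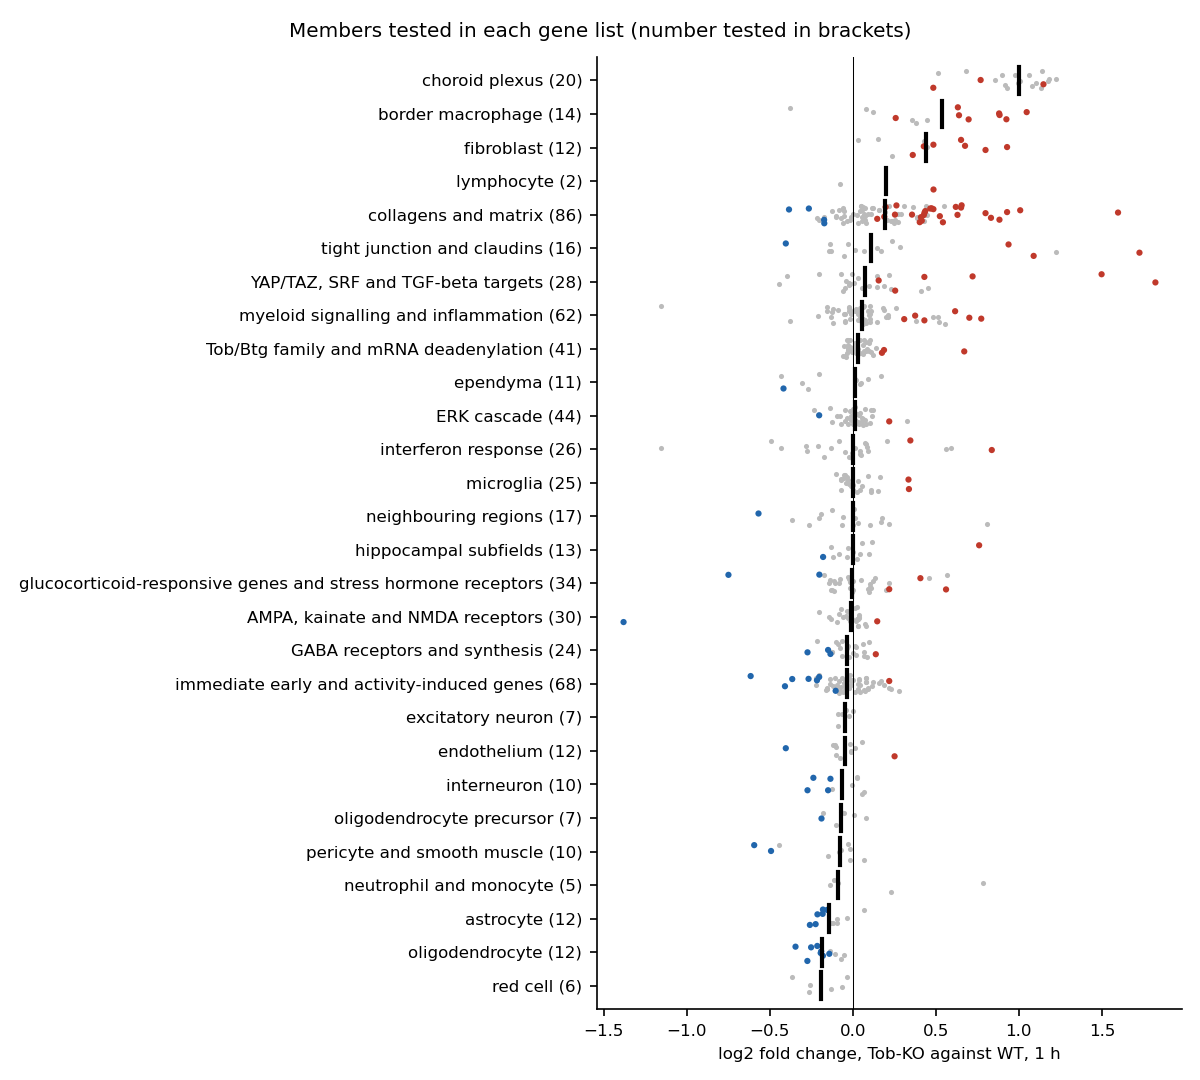
Log2 fold change of Tob-KO against WT at 1 h (horizontal) of each member tested in 28 gene lists (vertical, number tested in brackets), with black bars at the median and members at an unadjusted p of at most 0.05 in red (higher) or blue (lower). The medians run from 1.00 for choroid plexus markers through 0.54 for border macrophages and 0.19 for matrix genes to -0.19 for oligodendrocyte and red cell markers.

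The 7 excitatory neuron markers had a median log2 fold change of -0.05 and 0 with an unadjusted p of at most 0.05, and they summed to 8538 to 8642 CPM in WT and 7981 to 8452 CPM in Tob-KO. Markers of hippocampal subfields and of neighbouring regions (13 and 17 tested) both had a median of 0.00 and 0 calls. Stac2, a calcium channel adaptor expressed in neurons, was called lower. It was at 91.5, 97.0 and 85.2 CPM in WT mice against 71.0, 67.2 and 66.5 CPM in Tob-KO, well apart (log2 fold change -0.42, SE 0.05, adjusted p = 4.29e-07 in edgeR's exact test), and was called whichever library was left out. It was not called with dispersion estimated from the 24 libraries. Its log2 fold change was -0.30, -0.15 and -0.14 at the other times, without a call. Of 10 interneuron markers, 4 had a log2 fold change above 0, the median was -0.06 and 0 were called. At an unadjusted p of at most 0.05, 4 of the 10 had a lower level, against 2.19% of all genes tested. They were Gad1 and Gad2, the enzymes that make GABA, Slc32a1, which loads it into vesicles, and Pvalb, the parvalbumin of fast-spiking cells. Slc32a1 was at 90.3, 98.5 and 99.5 CPM in WT mice against 85.3, 79.5 and 73.9 CPM in Tob-KO (log2 fold change -0.27, exact test, adjusted p = 0.0805), and DESeq2 called it lower (adjusted p = 0.0422).

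Immediate early genes, the textbook response to conditioning at this time, gave no calls. Of 68 activity-induced genes tested 0 were called, 7 were lower and 1 higher at an unadjusted p of at most 0.05, and the median was -0.03. Of all genes tested, 2.19% were lower and 3.15% higher at that p. In naive mice, at 15 min and at 3 h, 12, 7 and 13 of the 68 were lower at that p and 2, 1 and 2 higher. In naive mice 2 of the 68 were called lower, where 0.0381% of all genes tested were called in either direction. Fosb, an AP-1 subunit, was at 22.0, 23.7 and 24.9 CPM in WT mice against 20.9, 17.5 and 20.4 CPM in Tob-KO (log2 fold change -0.27, 95% interval -0.45 to -0.08, adjusted p = 0.592 in edgeR's exact test). Arl4d, a small GTPase, had a log2 fold change of -0.36 (exact test, adjusted p = 0.239). Fos, Arc and Egr1, named here after their values were seen, had 95% intervals of -0.42 to 0.10, -0.29 to 0.26 and -0.33 to 0.01.

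Of 44 genes of the ERK cascade, whose phosphorylation the study followed, 0 were called and 2 had an unadjusted p of at most 0.05. That p was reached by 5.34% of all genes tested. Dusp1, which encodes the ERK phosphatase MKP-1, was at 24.1, 26.1 and 20.3 CPM in WT mice against 26.7, 28.5 and 27.0 CPM in Tob-KO. The ranges did not overlap, but the difference did not pass the threshold (log2 fold change 0.22, 95% interval 0.03 to 0.41, adjusted p = 0.839 in edgeR's exact test). At the other times its log2 fold change was -0.59, -0.39 and -0.24.

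Stress hormone and receptor genes gave no calls either. Of 34 glucocorticoid-responsive genes and stress hormone receptors, 3 were higher and 2 lower at an unadjusted p of at most 0.05. For all genes tested the shares were 3.15% higher and 2.19% lower. Angptl4, a lipoprotein lipase inhibitor, had a log2 fold change of -0.75 (exact test, adjusted p = 0.382), and Crh, the corticotropin-releasing hormone, one of 0.56 at about 2 CPM (exact test, adjusted p = 0.736). Crhr2, Avpr1a and Mc3r, peptide receptors that the study names, had 95% intervals of -0.29 to 0.50, -1.19 to 0.83 and -0.22 to 1.36. Of 30 AMPA, kainate and NMDA receptor genes and of 24 GABA genes, 0 were called, with medians of -0.01 and -0.03. Among the GABA genes, 3 (Gad1, Gad2 and Slc32a1) were lower and 1 (Gabra4) higher at an unadjusted p of at most 0.05 in the exact test. Gabra4, a GABA receptor subunit, was at 108, 106 and 102 CPM in WT mice against 113, 118 and 117 CPM in Tob-KO (log2 fold change 0.14, exact test, adjusted p = 0.565). Of 26 interferon response genes, 0 were called and 2 had an unadjusted p of at most 0.05.

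Of the remaining called genes, several encode membrane proteins. Cldn3, a tight junction claudin, was at 0.519, 0.228 and 0.220 CPM in WT mice against 1.33, 0.694 and 1.17 CPM in Tob-KO (log2 fold change 1.73, SE 0.40, adjusted p = 0.0348 in edgeR's exact test). The call was kept in 2 of the 6 fits without a library (adjusted p up to 0.478 in the exact test) and lost with DESeq2 (adjusted p = 0.177). Cldn3 was called in the same direction at 15 min, with 0.497, 1.35 and 1.06 CPM in Tob-KO mice 1, 2 and 3 of that time. Choroid plexus markers summed to 330, 5529 and 2281 CPM in those mice, against 238.5 to 275.8 CPM in WT mice at 15 min. The part of choroid plexus content in the Cldn3 values was not tested. Cldn1, another claudin, followed the choroid plexus markers, with 12.3, 3.52 and 7.74 CPM in WT against 14.2, 15.2 and 20.7 CPM in Tob-KO (log2 fold change 1.09, exact test, adjusted p = 0.382).

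Slc5a3, an inositol transporter, was at 58.5, 56.7 and 65.8 CPM in WT mice against 76.3, 73.3 and 76.0 CPM in Tob-KO (log2 fold change 0.32, adjusted p = 0.0120 in edgeR's exact test), and it shares its locus with Mrps6. Npr3, the natriuretic peptide clearance receptor, was at 29.5, 22.9 and 31.0 CPM in WT mice against 38.8, 38.0 and 40.7 CPM in Tob-KO (log2 fold change 0.50, adjusted p = 0.0158 in the same exact test). Ston1, an endocytic adaptor, had a log2 fold change of 0.60 (exact test, adjusted p = 0.0174). All 3 were called in 2 or 3 of the 6 fits without 1 library.

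Vgll3, a cofactor of TEAD transcription factors, was at 1.95, 1.70 and 2.96 CPM in WT mice against 8.46, 7.19 and 3.00 CPM in Tob-KO. Tob-KO mouse 3 was barely above WT mouse 3, so the 2.83-fold mean difference came from the other 2 Tob-KO mice (log2 fold change 1.498, SE 0.35, adjusted p = 0.0350 in edgeR's exact test). It was called in 3 of the 6 fits without a library and not by DESeq2 (adjusted p = 0.358). Of 28 targets and cofactors of YAP/TAZ, SRF and TGF-beta, Vgll3 was called and 6, all higher and Vgll3 among them, had an unadjusted p of at most 0.05. The shares of all genes tested were 0.0826% called higher and 3.15% higher at that p. Yap1 itself had a log2 fold change of 0.26 (exact test, adjusted p = 0.634) and Smad6, an inhibitor of BMP signalling, one of 0.72 (exact test, adjusted p = 0.510).

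Of the scarce or uncertain rows, Slc24a1, a sodium, calcium and potassium exchanger, was at 0.122, 0.101 and 0.220 CPM in WT mice against 0.5997, 0.694 and 0.400 CPM in Tob-KO (log2 fold change 1.93, adjusted p = 0.0428 in edgeR's exact test). It was called in 3 of those 6 fits and not by DESeq2 (adjusted p = 0.4805). The non-coding 4930511M06Rik had 0.153, 0 and 0.0944 CPM in WT mice against 0.5997, 0.694 and 0.700 CPM in Tob-KO (log2 fold change 3.04), and its annotation overlaps several genes on both strands. Nat1, an arylamine acetyltransferase, was at 1.80, 1.57 and 1.98 CPM in WT mice against 0.800, 0.972 and 0.8998 CPM in Tob-KO (log2 fold change -0.99, exact test, adjusted p = 0.0350), and it was called in 1 of the 6 fits without a library and not by DESeq2. Utp14b had a log2 fold change of -0.67 (exact test, adjusted p = 0.0252) but overlaps Acsl3 on the same strand, whose log2 fold change was -0.08. A row whose name had become the date 4-Sep was lower by 1.21-fold (exact test, adjusted p = 0.0348) and was given no gene. Utp14b and the 4-Sep row were each called in 3 of the 6 fits without a library.

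A separate set of calls lay on the chromosome of Tob1. Within 10 Mb of Tob1 on chromosome 11 (94211454 to 94215495, plus strand), 5 of 317 genes tested were called (1.58%), against 16 of 16060 on other chromosomes (0.0996%). They were Tob1, Utp18, Stac2, Gm11940 and Krt12. Utp18, a ribosomal RNA processing factor whose gene lies 0.341 Mb away, was at 21.8, 21.4 and 20.1 CPM in WT mice against 30.4, 30.7 and 29.3 CPM in Tob-KO, with replicates close together in both genotypes (log2 fold change 0.51, SE 0.06, adjusted p = 4.29e-07 in edgeR's exact test). Gm11940, a non-coding transcript 5.17 Mb away that overlaps Krt10 on the opposite strand, was at 0.214, 0.253 and 0.346 CPM in WT mice against 1.03, 1.53 and 1.73 CPM in Tob-KO. Krt12, a keratin, was at 1.86, 2.48 and 1.73 CPM in WT mice against 0.933, 0.174 and 0.400 CPM in Tob-KO, and was called in 3 of the 6 fits without a library. Krt12 overlaps A830036E02Rik on the opposite strand, which was also lower at an unadjusted p of at most 0.05 in the exact test but not called.

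All of these but Stac2 were also called in other mice. Of the 22 genes called at 1 h, 5 were also called in the same direction at 1 or more of the other times by the exact test, at which 7 (0.0381%), 137 (0.746%) and 12 (0.0657%) genes were called in naive mice, at 15 min and at 3 h. Tob1, Gm11940 and Krt12 were called at all 3, Utp18 at 15 min and 3 h, and Cldn3 at 15 min. The log2 fold change of Utp18 was 0.43, 0.55 and 0.55 in naive mice, at 15 min and at 3 h. The 17 genes called at 1 h without a call at another time included all 4 matrix genes, Lyz2, Bcas1 and Stac2; since the difference between 1 h and naive mice was not called for any gene, a call at 1 h alone does not show that their genotype difference depends on time.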

How the data were processed

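Hippocampal poly(A) RNA of 24 mice (8 groups of 3) was sequenced as 150-bp paired reads from directional libraries made with 8 PCR cycles. The authors mapped reads to GRCm38 with STAR 2.6.1d and counted them with HTSeq 0.9.0; they deposited raw read counts per gene for all libraries in a single table. The strand setting of the counting was not given in the sources used here, so overlapping genes are uncertain.

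Genotypes at 1 h were compared with edgeR 4.0.16 in R 4.3.3, after the study's methods. Genes with at least 0.2 CPM in 2 of the 6 libraries were kept, normalized by TMM and tested with the two-sided exact test with Benjamini-Hochberg adjustment, and called at an FDR of at most 0.05. CPM values are TMM-normalized over the 24 libraries. Standard errors and 95% intervals came from the quasi-likelihood fit. The interaction with naive mice was tested by the quasi-likelihood test on 12 libraries. DESeq2 1.42.0, other normalizations, filters, dispersion from 24 libraries, a replicate block and leaving out each library were alternatives. The scripts were tested on simulated data. Total counts at 1 h were 28847989 to 39829648, and a count of 0 allows up to 3 reads, for counting error only.

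Groups were taken from the labels. Named genes were all genes called at 1 h, Tob1, Tob2, Lcn2, Dusp1, Crhr2, Avpr1a, Mc3r and Ttr, and in each list the 4 members with the smallest p, or up to 12 with an unadjusted p of at most 0.05 in the matrix and myeloid lists. Col6a3, Plod1 and Slc1a2 were added after their values were seen. The genes examined and the lists were chosen with earlier results of these data known, and the division of the matrix list into kinds of protein was made after its values were seen. Coordinates are those of GENCODE M21 on GRCm38, where 95.9% of the genes tested matched exactly 1 annotated gene. Of the rows tested, 25 had a date for a name and were given no gene. Replicates were separate mice of a group, and no pair of replicate libraries agreed within sampling noise (chi-square per degree of freedom 4.44 to 16.0).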

Additional observations from a re-analysis of the deposited data

How the results depend on the processing

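The number of genes called between Tob-KO and WT at 1 h, 22 in the exact test, was 0 with the quasi-likelihood test and 4 with dispersion estimated from the 24 libraries, and the 6 genes past 2-fold became 0 and 1. The 4 genes were Tob1, Gm11940, Utp18 and Nat1, so no matrix gene was among them, nor were Lyz2 and Stac2. The 5 calls shared with other times became 0 with the quasi-likelihood test. DESeq2 called 28, RLE size factors gave 22, filterByExpr 23, no filter on low counts 19, and library size alone 18 (15 higher and 3 lower, against 15 and 7). Leaving out 1 library gave 12 to 400 calls, and 4 to 155 past 2-fold. The value of 400 was without WT mouse 1 and 46 without Tob-KO mouse 1, of which 22 and 11 were among the 22; without WT mouse 2 or Tob-KO mouse 2 it was 12, and without Tob-KO mouse 3 it was 13. The cause was not tested. Tob1, Gm11940, Utp18, Stac2, 4930511M06Rik, Col1a2 and Col6a1 were called in all 6 of these fits. The interaction with naive mice stayed at 0 calls in every setting run.

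The replicate numbers did not pair the mice, since same-numbered WT and Tob-KO libraries deviated from their group means with correlations of 0.0123, 0.0433 and 0.00183. With the replicate number as a block, the quasi-likelihood test called 1 gene (0 past 2-fold), which was Tob1.

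Uncalled named genes changed sign in fits without 1 library, with log2 fold changes from -0.79 to 0.16 for Avpr1a, -0.81 to 0.29 for Acta2, -0.36 to 0.18 for Mmp9, -0.18 to 0.014 for Cd79a, -0.0037 to 0.31 for Dsp and -0.15 to 1.18 for Trh. Depth limits genes under about 1 CPM, for which few reads lie behind each value.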
